A study of Mus musculus with 4 samples.

Results

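Subunit c of the mitochondrial ATP synthase is made from 3 nuclear genes, Atp5g1, Atp5g2 and Atp5g3, and a processed copy of the Atp5g1 message, Gm10039, lies elsewhere in the mouse genome. These 4 genes were taken by symbol from a count table of 38355 genes, and the share of their summed counts that each gene held was followed in every library. They were picked for how they differed between transgenic and wild-type hearts, so their values in that comparison are given as a description with no test. In these 4 hearts Atp5g1 stood at 11.5 ± 0.703 CPM (counts scaled to a common library total) in transgenic mice, against 36.3 ± 0.328 CPM in wild-type mice (SD, n = 2 each). The summed level of the 4 genes was 1325 ± 4.26 CPM in transgenic hearts and 1332 ± 5.31 CPM in wild-type hearts. By the counts assigned to it, Atp5g1 held at most 2.74% of that sum in any library. Gm10039, which differs from Atp5g1 at 1 coding base, held 21.2% to 25.4%, and the division of reads between them is uncertain.

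Subunit c is the small hydrophobic protein whose copies form the rotating ring of the ATP synthase in the inner mitochondrial membrane. Protons crossing the membrane turn the ring, and the attached central stalk drives ATP formation in the F1 head. Heart muscle depends heavily on this enzyme. The 3 genes encode the same mature protein behind different mitochondrial targeting presequences, which are removed after import.

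The study asked whether VSFP2.3, a voltage-sensitive fluorescent protein made as a transgene, is toxic to the heart. Free wall of the left ventricle was taken from 4 mice that had no treatment and the same parents, and each gave 1 RNA library. The transgenic mice (TG) carried VSFP2.3, TG 1 being a male of 35 weeks and TG 2 a female of 19 weeks. The wild-type mice (WT) lacked it, WT 1 being a male of 35 weeks and WT 2 a female of 19 weeks. The series title describes the indicator as targeted to heart muscle cells. The driving promoter, the strain and the number of founder lines are not given in the sources at hand, and transgene transcripts were not analysed here.

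The libraries held 14158440 to 16762713 counted reads and 18334 to 19001 genes with a count. CPM values use library sizes scaled by trimmed means (TMM). On that scale 3 counts, about the 1-sided 95% upper limit for a count of 0, equal 0.182 to 0.213 CPM. All 9 heart muscle markers examined passed the count filter, with sums of 63754 to 76991 CPM in TG and 62532 to 68884 CPM in WT. Summed markers of leukocytes, erythroid cells, endothelium, fibroblasts, adipocytes and atrium overlapped between the genotypes. Those of leukocytes were at 206 CPM in TG 1 and 210 CPM in WT 2, against 877 CPM in TG 2 and 1053 CPM in WT 1. Those of atrium were at 1555 CPM in TG 1 and 1221 CPM in WT 2, against 4225 CPM in TG 2 and 3705 CPM in WT 1. Only 2 of the 4 atrial markers passed the count filter, and Myl7 and Sln were at 0 in at least 1 library. Both sums thus split TG 1 and WT 2 from TG 2 and WT 1, across genotype, sex and age. The part of this split in the spread within groups was not tested. Summed smooth muscle and pericyte markers (5 of 5 genes tested) were at 1418 to 1439 CPM in TG, against 797 to 1361 CPM in WT, and their part in the values below was not tested. In whole tissue, fewer cells of a type and less RNA per cell cannot be told apart.

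The coding sequence of the mature subunit, 75 codons and the stop codon, is shown for each gene because it shows how far a read can tell the genes apart. All 4 are from the GENCODE vM21 transcripts of the mm10 assembly, minus strand, written 5′ to 3′, with capitals marking bases unlike those of Atp5g1. The stretches run over chr11:96073104-96073635 for Atp5g1, chr15:102663014-102665166 for Atp5g2 and chr2:73908593-73909296 for Atp5g3, introns left out, and over chr11:100361716-100361943 for the intronless Gm10039.
Atp5g1: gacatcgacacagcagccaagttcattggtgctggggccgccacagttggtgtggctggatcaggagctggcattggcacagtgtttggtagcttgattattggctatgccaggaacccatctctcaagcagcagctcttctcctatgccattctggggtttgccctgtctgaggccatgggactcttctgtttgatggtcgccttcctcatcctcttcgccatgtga
Atp5g2: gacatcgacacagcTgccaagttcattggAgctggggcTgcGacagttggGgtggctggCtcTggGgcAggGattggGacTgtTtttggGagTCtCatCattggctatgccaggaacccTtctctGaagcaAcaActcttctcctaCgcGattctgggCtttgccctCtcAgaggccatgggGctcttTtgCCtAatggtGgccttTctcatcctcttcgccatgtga
Atp5g3: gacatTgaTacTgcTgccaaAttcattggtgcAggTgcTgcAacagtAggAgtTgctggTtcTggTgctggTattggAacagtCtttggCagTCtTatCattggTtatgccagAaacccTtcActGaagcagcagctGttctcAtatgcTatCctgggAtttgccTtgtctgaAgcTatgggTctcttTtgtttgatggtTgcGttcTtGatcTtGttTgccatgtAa
Gm10039: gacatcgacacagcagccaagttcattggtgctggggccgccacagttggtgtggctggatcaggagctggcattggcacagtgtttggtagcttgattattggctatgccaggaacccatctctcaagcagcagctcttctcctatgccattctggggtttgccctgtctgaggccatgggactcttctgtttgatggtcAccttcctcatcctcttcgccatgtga

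Atp5g2 differed from Atp5g1 at 34 of these 228 bases and Atp5g3 differed at 46, and neither set of differences changed an encoded residue. Their identity to Atp5g1 was 85.1% for Atp5g2 and 79.8% for Atp5g3. Gm10039 differed from Atp5g1 at 1 base, which changes the residue. Over the whole coding sequence of 411 bases, presequence included, the pair also differed at that base alone. The substitution from Atp5g1 to Gm10039 was G385A, counted from the first base of the start codon, in codon 129. It lies at position 96073130 of chromosome 11 in the last coding exon of Atp5g1 and at position 100361742 in Gm10039.

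What such likeness means for counting was measured with windows of 50 bases, a length chosen here since the sources used here do not give the read length. Of the 362 windows in the Gm10039 transcript, 335 (92.5%) occurred letter for letter in Atp5g1. In the short Atp5g1 transcript of 691 bases, 52.2% of the windows occurred in Gm10039 and 56.2% in at least 1 other gene. In the long Atp5g1 transcript of 4715 bases, 7.18% of the windows occurred in Gm10039. Only annotated transcripts were searched, and that of Gm10039 has 411 bases, so any copied sequence outside it was not counted. Atp5g3 shared none of its 665 windows with another gene, while Atp5g2 shared 596 of 682 (87.4%) with the processed copies Gm10175 and Gm10231. Counts of Atp5g1, Gm10039 and Atp5g2 are therefore uncertain, as reads in shared stretches cannot be assigned by sequence, whereas those of Atp5g3 carry no such overlap at this length.

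Atp5g1 (ENSMUSG00000006057, protein-coding, mm10 chromosome 11, 96068852 to 96075670) had 155 counts in TG 1 and 181 in TG 2, against 602 in WT 1 and 565 in WT 2. These equal 11.0 and 12.0 CPM in TG, with 95% Poisson intervals of 9.35 to 12.9 and 10.3 to 13.9, which like all such intervals here cover counting error only. In WT they equal 36.6 and 36.1 CPM, with intervals of 33.7 to 39.6 and 33.2 to 39.2. Both TG hearts were lower than both WT hearts, with no overlap of groups or of counting intervals. The fitted log2 fold change, TG over WT, was -1.66 ± 0.14 (SE), a level 3.15-fold lower in TG. The log2 ratio was -1.72 between the 35-week males and -1.58 between the 19-week females. In the authors' normalized signal, which divides the counts by 1 factor for each library, Atp5g1 stood at 169 and 183 in TG, against 558 and 550 in WT. Of the 14189 genes tested by edgeR's quasi-likelihood test, 0% passed an adjusted p of 0.05 in this comparison and 99 had an unadjusted p under 0.05. Those 99 are a smaller part of the tested genes than the 0.05 that evenly spread p-values would give. Missing the threshold therefore does not show that a gene is unchanged. DESeq2 called 3 genes and limma-voom 0 (95 at an unadjusted p under 0.05). Both TG libraries were below both WT libraries for 10.7% of the tested genes. Since the genes were chosen on this comparison, nothing is read from Atp5g1 and Atp5g3 being among that 10.7%.

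Gm10039 (ENSMUSG00000091478, a processed pseudogene, chromosome 11, 100361716 to 100362126), a DNA copy made from a spliced message, lies 4.29 Mb from Atp5g1 on the same chromosome. It had 4694 and 5065 counts in TG, against 4879 and 4409 in WT. After scaling these were 334 and 336 CPM in TG, against 296 and 282 CPM in WT. Both TG hearts were above both WT hearts, as were those of 10.3% of the tested genes. The means were 335 ± 1.74 CPM in TG and 289 ± 10.3 CPM in WT (SD, n = 2 each), a log2 fold change of 0.21 ± 0.13 (SE). Its log2 ratio was 0.17 between the males and 0.25 between the females. On the scale of CPM, Gm10039 was 45.7 CPM higher in TG while Atp5g1 was 24.8 CPM lower.

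The pseudogene held most of the reads of this near-identical pair in every library. Atp5g1 took 3.20% (95% exact binomial interval, 2.72 to 3.73) and 3.45% (2.97 to 3.98) of the pair's counts in TG 1 and TG 2. It took 11.0% (10.2 to 11.8) and 11.4% (10.5 to 12.3) in WT 1 and WT 2. Neither the TG and WT shares nor their counting intervals overlapped. These intervals too cover counting error only, not the spread between mice. As the genes were chosen on this comparison, the gap is a description and not a test. Counted together, the pair had 345 and 348 CPM in TG, against 333 and 318 CPM in WT, a difference of 20.9 CPM towards TG. With the pair fitted as 1 gene, the log2 fold change was 0.09. Since Gm10039 supplied most of the pair's counts, this value mostly follows Gm10039 and does not test the direction seen for Atp5g1. How the authors' counting divided reads of the pair is not stated in the sources used here, and its part in the Atp5g1 values was not tested.

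**Figure D1:**
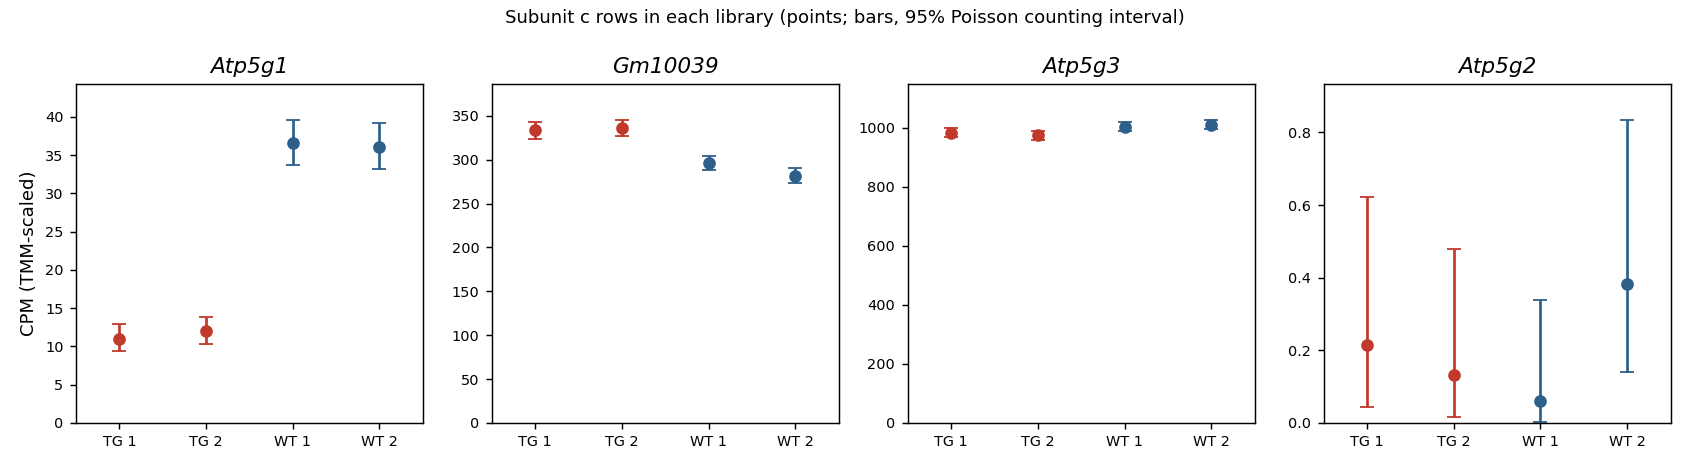
Level of each subunit c gene in TMM-scaled CPM (vertical axes, linear, with a range of their own) in the 2 TG hearts (red) and 2 WT hearts (blue); points are libraries and bars are 95% Poisson counting intervals. Atp5g1 sits at 11.0 and 12.0 CPM in TG and 36.6 and 36.1 CPM in WT, while Atp5g3 lies between 974 and 1010 CPM in all 4.

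Atp5g3 (ENSMUSG00000018770, protein-coding, chromosome 2, 73908447 to 73911326) supplied most subunit c reads. It had 13833 and 14675 counts in TG, against 16506 and 15804 in WT. These were 983 and 974 CPM in TG, against 1003 and 1010 CPM in WT. Both TG hearts were below both WT hearts, with a mean difference, TG minus WT, of -28.0 CPM. The means were 978 ± 6.65 CPM in TG and 1006 ± 5.13 CPM in WT (SD, n = 2 each), and the fitted log2 fold change was -0.04 ± 0.13 (SE). The SE of the fit, which takes its spread from many genes, was larger than this difference. This too is a description and not a test.

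Atp5g2 (ENSMUSG00000062683, protein-coding, chromosome 15, 102662864 to 102672352) was close to the limit of detection. It had 3 and 2 counts in TG, against 1 and 6 in WT, equal to 0.213 and 0.133 CPM in TG and 0.0607 and 0.383 CPM in WT. The groups overlapped, and Atp5g2 did not pass the filter on low counts, which the other 3 genes did. The ratio of TG to WT was 0.787 with a 95% counting interval of 0.197 to 2.88, from 5 counts in TG and 7 in WT. A difference within that interval was not detectable at this depth. The copy Gm10175, identical to the Atp5g2 coding sequence over 441 bases, had 2 and 1 counts in TG, against 4 and 5 in WT.

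Levels of different genes were compared per kilobase of exonic length. Atp5g3 had 451 and 446 CPM per kilobase in TG, against 460 and 463 in WT. Atp5g1 had 2.24 and 2.44 CPM per kilobase in TG, against 7.44 and 7.35 in WT. By the mean over all libraries Atp5g3 ranked 59 and Atp5g1, by the counts assigned to it, ranked 5894 among 12827 tested protein-coding genes. The Atp5g1 level divides by 4912 exonic bases, most of them from the long transcript. Over the short transcript of 691 bases, also added after seeing the data, the same counts gave 15.9 and 17.4 CPM per kilobase in TG, against 52.9 and 52.2 in WT, still below Atp5g3 in each library. Gm10039, annotated at only 411 bases, had 812 and 818 CPM per kilobase in TG, against 721 and 685 in WT, above Atp5g3 in each library. Atp5g2 had 0.0363 to 0.229 CPM per kilobase over the 4 libraries. At these annotated lengths the order was Gm10039, Atp5g3, Atp5g1 and Atp5g2 in all 4 hearts. The order of the first 2 genes rests on that length. With the RefSeq span of 750 bases, added after seeing the data, Gm10039 was at 445 and 448 CPM per kilobase in TG, against 395 and 376 in WT, and above Atp5g3 in 1 of 4 libraries.

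The 4 genes together had 18685 and 19923 counts in TG, against 21988 and 20784 in WT. After scaling these sums were 1328 and 1322 CPM in TG, against 1336 and 1328 CPM in WT. The mean difference, TG minus WT, was -7.11 CPM, and the fitted log2 fold change was -0.01 ± 0.13 (SE). The fitted difference in the sum was smaller than its SE, given as a description, which does not show that the totals are alike. By the counts assigned to it, Atp5g1 was a small part of the sum.

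By counts, Atp5g3 made up 74.0% and 73.7% of the sum in TG, against 75.1% and 76.0% in WT. Gm10039 made up 25.1% and 25.4% in TG, against 22.2% and 21.2% in WT. Atp5g1 made up 0.830% (95% exact binomial interval, 0.705 to 0.970) and 0.908% (0.781 to 1.05) in TG, against 2.74% (2.53 to 2.96) and 2.72% (2.50 to 2.95) in WT. The Atp5g1 share averaged 0.869% ± 0.0558 in TG and 2.73% ± 0.0137 in WT (SD, n = 2 each), a difference of -1.86 percentage points. The Gm10039 share was 3.57 points higher and the Atp5g3 share 1.71 points lower in TG. With Gm10039 left out of the sum the Atp5g1 difference was -2.32 points, and per kilobase it was -0.446 points. With Gm10039 added to Atp5g1, the joint share was 26.0% and 26.3% in TG, against 24.9% and 23.9% in WT, 1.71 points higher in TG.

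**Figure D2:**
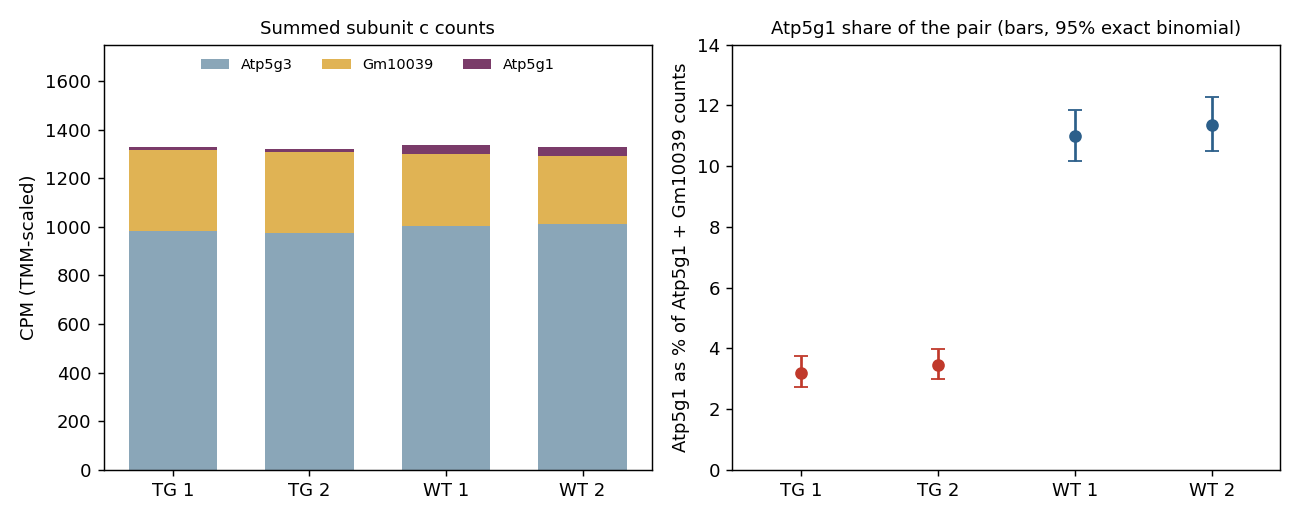
Left, summed CPM of Atp5g3, Gm10039 and Atp5g1 stacked for each library (Atp5g2, at most 0.383 CPM, is not drawn); right, Atp5g1 as a percent of Atp5g1 plus Gm10039 counts, points for libraries (TG red, WT blue) and bars for 95% exact binomial intervals. The sums lie between 1322 and 1336 CPM, while the Atp5g1 share of the pair is 3.20% and 3.45% in TG and 11.0% and 11.4% in WT.

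The 35-week males were also compared with the 19-week females, with p-values adjusted over all 14189 genes. Sex and age coincide in these mice and cannot be told apart. In this comparison 0.0282% of the tested genes (4 genes) passed edgeR's adjusted p of 0.05, and none of the subunit c genes was among them. Atp5g1 averaged 23.8 ± 18.1 CPM in males and 24.1 ± 17.0 CPM in females (SD, n = 2 each), each pair holding 1 TG and 1 WT mouse. Its log2 fold change, males over females, was -0.01 ± 0.75 (SE), with an adjusted p of 0.999 by edgeR. That fit leaves genotype out, so the gap between TG and WT on which the genes were chosen sits inside its spread, and its SE and p for these genes do not test sex and age independently of that choice. Within a genotype, Atp5g1 had 11.0 CPM in the male and 12.0 CPM in the female TG heart, and 36.6 CPM in the male and 36.1 CPM in the female WT heart. With genotype as a further term, the Atp5g1 log2 fold change was -0.05 ± 0.16 (SE), with an adjusted edgeR p of 1.00. That fit called 0 genes, with 229 at an unadjusted p under 0.05. With 2 mice in each group, SEs and p-values reflect how these 4 mice vary, and a p that misses the threshold does not show that males and females are alike.

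Atp5g3 averaged 993 ± 13.9 CPM in males and 992 ± 25.7 CPM in females, a log2 fold change of 0.0016 ± 0.12 (SE) and an adjusted edgeR p of 0.999. Gm10039 averaged 315 ± 26.3 CPM in males and 309 ± 38.4 CPM in females, a log2 fold change of 0.03 ± 0.15 and an adjusted edgeR p of 0.999. With genotype as a term the log2 fold changes were 0.0017 ± 0.16 for Atp5g3 and 0.03 ± 0.17 for Gm10039, each with an adjusted edgeR p of 1.00. The summed level of the 4 genes had a log2 fold change of 0.01 ± 0.11 (SE), males over females.

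The list of other ATP synthase subunits, which also holds the inhibitor Atpif1, had 15 of 19 genes in the test. None passed edgeR's adjusted p of 0.05 between TG and WT, and neither this list nor the 3 described after it held a gene with an unadjusted p under 0.05. Their log2 fold changes, TG over WT, were above 0 for 5 and below 0 for 10, with a median of -0.05 and a range of -0.19 to 0.54. The median over all tested genes was -0.01. Atp5b, the catalytic beta subunit, had 4772 and 4373 CPM in TG, against 4647 and 4921 CPM in WT, a log2 fold change of -0.07 ± 0.13. Atp5a1, the alpha subunit, had 4845 and 4435 CPM in TG, against 4623 and 3966 CPM in WT, a log2 fold change of 0.11 ± 0.15. Both genes overlapped between the genotypes.

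Atp5c1, the gamma subunit of the central stalk that turns with the c-ring, had 878 and 898 CPM in TG, against 962 and 925 CPM in WT. It was the single listed subunit with both TG hearts below both WT hearts (1 of 15, against 10.7% of all tested genes), and its log2 fold change was -0.09 ± 0.13. Usmg5, a small membrane subunit linked to dimers of the enzyme, had 3.48 and 3.98 CPM in TG, against 2.43 and 2.68 CPM in WT. Its log2 fold change, 0.54 ± 0.30, was the largest in size among the listed subunits that were tested, at a level of few CPM. Atp5j, coupling factor F6 of the peripheral stalk, had 180 and 189 CPM in TG, against 167 and 253 CPM in WT, and overlapped. Atp5d, the delta subunit, and Atpif1, the inhibitor of the enzyme's reverse reaction, also had both TG hearts above both WT hearts, with log2 fold changes of 0.14 ± 0.13 and 0.17 ± 0.16. With Usmg5 these were 3 of the 15 listed genes tested, against 10.3% of all tested genes. Atp5l did not pass the count filter. Atp5i and the mitochondrially encoded subunits mt-Atp6, whose protein adjoins the c-ring, and mt-Atp8 were not analysed here.

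Genes that process, insert or assemble the enzyme were tested for 9 of 11 listed names, and none passed edgeR's threshold between TG and WT. The names 5730437N04Rik and Fmc1 were not in the count table, and Fmc1 is another name of 1110001J03Rik, which was tested. Of the 9 tested, 3 log2 fold changes were above 0 and 6 below, TG over WT, with a median of -0.02 and a range of -0.24 to 0.11. Pmpcb and Pmpca form the peptidase that cuts off the presequence, and Oxa1l helps insert proteins into the inner membrane. Pmpcb had 220 and 209 CPM in TG, against 226 and 216 CPM in WT. Pmpca had 194 and 156 CPM in TG, against 156 and 177 CPM in WT, with a log2 fold change of 0.07 ± 0.18. Oxa1l had 82.5 and 77.8 CPM in TG, against 79.4 and 83.6 CPM in WT. All 3 overlapped between the genotypes. The assembly factor Atpaf2 had 28.9 and 26.7 CPM in TG, against 29.1 and 31.0 CPM in WT. 1110001J03Rik, listed as Fmc1 in GENCODE vM21 and known to assist Atpaf2, had 47.8 and 58.4 CPM in TG, against 66.0 and 59.2 CPM in WT. Both had TG below WT without overlap, with log2 fold changes of -0.11 ± 0.14 and -0.24 ± 0.17. Tmem242, another assembly factor, did so too, with 71.2 and 71.8 CPM in TG, against 78.4 and 72.9 CPM in WT, and a log2 fold change of -0.08 ± 0.13. These were 3 of 9 genes below, against 10.7% of all tested genes, and 0 of 9 above.

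The list of carriers and channels that supply the enzyme and export ATP also holds the enzymes Ckmt2 and Ppif. Of its 8 genes 8 were tested, with 0 called by edgeR between TG and WT. Their median log2 fold change, TG over WT, was -0.02 (3 above 0, 5 below, range -0.09 to 0.09). Slc25a4, the heart form of the ADP/ATP carrier, had 4395 and 4380 CPM in TG, against 4443 and 4389 CPM in WT, a log2 fold change of -0.01 ± 0.13. The phosphate carrier Slc25a3 had 1380 and 1252 CPM in TG, against 1269 and 1331 CPM in WT. Both overlapped between genotypes. Ckmt2, the mitochondrial creatine kinase of striated muscle, had 2468 and 2238 CPM in TG, against 2510 and 2496 CPM in WT. Vdac3, an outer membrane channel, had 71.9 and 71.3 CPM in TG, against 66.1 and 68.2 CPM in WT. Neither overlapped, with log2 fold changes of -0.09 ± 0.13 for Ckmt2 and 0.09 ± 0.13 for Vdac3. They were 1 of 8 below and 1 of 8 above, close to the 10.7% and 10.3% of all tested genes.

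Subunit c is also known as the main material stored in lysosomes in several neuronal ceroid lipofuscinoses, inherited diseases of lysosomal breakdown. The 8 lysosomal disease genes listed were all tested, and none passed edgeR's threshold between TG and WT. Their log2 fold changes, TG over WT, were above 0 for 3 and below 0 for 5, with a median of -0.03. Tpp1, the peptidase that starts the breakdown of subunit c, had 72.3 and 67.1 CPM in TG, against 57.6 and 58.4 CPM in WT. It was the single listed gene of this group without overlap (1 of 8 above, against 10.3% of all tested genes), with a log2 fold change of 0.26 ± 0.13. The protease Ctsd had 1386 and 1639 CPM in TG, against 1694 and 1529 CPM in WT. Ppt1, whose loss is better known for storing other proteins, had 125 and 139 CPM in TG, against 153 and 109 CPM in WT. TG and WT overlapped for both Ctsd and Ppt1.

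The genes whose pattern over the 4 libraries was most like that of each subunit c gene were found among 8304 genes with a mean of at least 10 CPM, by the root mean squared (RMS) difference of centred log2 CPM. This likeness was measured over 4 libraries only and is a description. For Atp5g1 the nearest was Neb, which encodes the giant thin filament protein nebulin, at an RMS difference of 0.398. Neb had 31.1 and 34.4 CPM in TG, against 59.9 and 58.5 CPM in WT. Next came Mybpc2, a myosin-binding protein of fast skeletal muscle, at 0.500, Thbs1 at 0.514 and Epn3 at 0.528. These 4 genes had both TG hearts below both WT hearts, which the likeness rule itself favours, and none of them came as close to Atp5g1 as those nearest to the other members did.

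For Atp5g3 the 5 nearest genes, Sugp1, Timm9, Fundc2, Sh3bgr and Prdx2, lay at RMS differences of 0.00432 to 0.00902. For Gm10039 they were Acbd3, Tmx4, Cbll1, Foxj3 and Cnih1, at 0.00849 to 0.0200.

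Within 500 kb of Atp5g1 lay 25 protein-coding genes, of which 9 were tested and 0 passed the edgeR threshold between TG and WT. Their log2 fold changes ranged from -0.43 for Gngt2 to 0.45 for Ngfr, with a median of 0.09. Both TG hearts were below both WT hearts for 2 of the 9 and above for 3, against 10.7% and 10.3% of all tested genes. Ube2z, a ubiquitin-conjugating enzyme and the nearest tested neighbour, had 62.9 and 58.9 CPM in TG, against 56.9 and 58.0 CPM in WT. It was among the 3 genes above. Around Gm10039, a region added after its values were seen, 17 of 49 protein-coding genes were tested, with 0 called and a median log2 fold change of -0.07. Both TG hearts were below both WT hearts for 3 of the 17 and above for 1, against 10.7% and 10.3% of all tested genes. Hap1, at 5.59 kb the nearest, had 1.49 and 1.26 CPM in TG, against 1.64 and 1.34 CPM in WT, and overlapped. The 1 gene above was Jup, which encodes the junction protein plakoglobin and lies 6.83 kb from Gm10039. It had 241 and 184 CPM in TG, against 165 and 171 CPM in WT.

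Other processed copies held few reads. Gm6612, 92.2% identical to Atp5g1 over 411 bases, had 2 and 4 counts in TG, against 0 and 3 in WT. Gm4660, Gm12337 and Gm1335 had at most 1 count in any library. Of the copies nearest to Atp5g2, Gm10231 had 1 count in WT 2 and 0 in the other 3 libraries. The sources used here do not say whether reads matching several places were counted, so low counts do not show that such copies are silent.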

How the data were processed

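Total RNA from 4 left ventricles was prepared with Illumina's TruSeq Stranded kit for total RNA and read on a HiSeq2000, per the labels' protocols. The authors deposited unscaled counts for each Ensembl gene and a normalized signal, which equalled the counts divided by 1 factor for each library (0.917 for TG 1, 0.987 for TG 2, 1.08 for WT 1 and 1.03 for WT 2). Tools named in the submitters' processing notes were STAR 2.3.0, HTSeq 0.6.1, DESeq, CASAVA 1.8.2 and FastQC 0.10.0, and the build named was mm10. The sources used here do not state the annotation release, strand setting, read length or treatment of reads matching several places. If reads are placed differently between Atp5g1 and Gm10039, both counts move.

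Counts were analysed with edgeR 4.0.16 in R 4.3.3 (filterByExpr with a minimum count of 10, TMM, quasi-likelihood test, Benjamini-Hochberg adjustment, threshold 0.05). The code was also run on simulated counts. These had the same spread setting for every gene, so that run does not show how the fit performs on these libraries. TG against WT and 35-week males against 19-week females were fitted on all 4 libraries without a block. Alternatives were limma-voom (limma 3.58.1), DESeq2 1.42.0, other scalings and filters, and leaving out each library. Ratios within a sex use a prior count of 2. Positions, biotypes, lengths and sequences came from GENCODE vM21, matched by identifier for 36602 genes (95.4%), and 1125 genes had no symbol. The members, lists, markers and tests were chosen with earlier results of these data known. Named genes were the members, the 3 of highest mean CPM and the 2 of largest absolute TG to WT log2 fold change in each list, the 5 genes nearest in pattern to each member (predicted and small RNA genes left out), and neighbours within 500 kb. Genes of the lists described as having no overlap, and the genes near Gm10039, were named after their values were seen. Some genes that this rule names are not reported here.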

Additional observations from a re-analysis of the deposited data

Results flagged for a closer look

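Atp5g2 went in opposite directions in the male and the female pair, which is why it is listed here. Its log2 ratio, TG over WT, with a prior count of 2, was 0.845 in the 35-week males (3 counts in TG 1, 1 in WT 1) and -0.965 in the 19-week females (2 counts in TG 2, 6 in WT 2). The difference between the pairs was not tested. All 4 counts lie near 3 counts, about the 1-sided 95% upper limit for a count of 0.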

How the results depend on the processing

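Values changed most when Gm10039 was added to Atp5g1. The pair had a TG to WT log2 fold change of 0.0899, against -1.66 for Atp5g1 alone. The share difference was 1.71 points for the pair, against -1.86 for Atp5g1. Gm10039 supplied most of the pair's counts, so the pair's values mostly follow Gm10039. The Atp5g1 share difference was -2.32 points with Gm10039 left out and -0.446 points per kilobase, and -1.90 to -1.82 without single libraries. Leaving out each library gave Atp5g1 log2 fold changes of -1.72 to -1.59, and the remaining settings gave -1.66 to -1.64. The summed log2 fold change was 0.0032 without scaling factors, against -0.0076. Gm10039 stayed at 0.18 to 0.25 and Atp5g3 at -0.05 to -0.03, TG over WT.

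Genes called between TG and WT numbered 0 in the edgeR fit, 3 by DESeq2 and 8 without WT 1 (0 to 8 over the libraries left out). With the replicate number as a block, the fit called 0 genes, and Atp5g1 was at -1.66. The labels give sex and age, not litter, as shared by a number, so the numbers were not taken as pairs. Deviations from the genotype means correlated at -0.449 for same-numbered mice and at 0.449 for mice of crossed numbers. With 2 mice of each genotype these values mirror each other by construction and cannot show whether a number marks a pair.

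Calls between males and females numbered 4 in the edgeR fit, 7 with no filter, 31 by DESeq2, 0 with genotype as a term, and 0 to 9 without single libraries (0 without TG 1, WT 1 or WT 2, and 9 without TG 2). In this comparison Atp5g1 turned to 0.0816 without scaling factors and 0.00089 with no filter, and ranged from -1.13 to 0.99 without single libraries. With Gm10039 added, the pair was at 0.0249. Atp5g3 was -0.0015 with Yam1 and Lars2 left out of library totals and -0.0225 to 0.0246 without single libraries, and Gm10039 was -0.10 to 0.16. None of these member values passed the threshold. DESeq2 and limma-voom values for members were added after seeing the data and kept their direction. The causes were not tested. With 2 mice in each group, a fit without 1 library takes the lone mouse to vary like the others.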
